A study of Mus musculus with 12 samples.

Results

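Described here are 9 genes of proton and anion transport in the mouse cochlea, out of 19505 gene names measured on an exon microarray. Of these, 7 encode subunits of the vacuolar proton pump (Atp6v1b1, Atp6v1b2, Atp6v1c2, Atp6v1g1, Atp6v1g3, Atp6v0a4 and Atp6v0d2), Slc26a4 encodes the anion exchanger pendrin, and Foxi1 encodes a forkhead transcription factor. The members were chosen by gene name with values of these arrays known, and Atp6v1g3 was picked for its high signal in the base, so its differences from the base are given as a description without a test. Its difference between the middle turn and the apex is described too, and enters only counts of members under other processing. All 9 names were found on the array, and each had at least 1 probe that all 4 arrays of some turn detected well above background.

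The vacuolar proton pump has a cytosolic part, V1, which splits ATP, and a membrane part, V0, which carries protons across. Several subunits exist as isoforms, some present in nearly every cell for the acidification of lysosomes and others, such as B1, G3 and a4, known from acid-secreting cells of the kidney. Mutations of the genes for B1 and a4 cause renal tubular acidosis with deafness, and mutations of the pendrin gene cause Pendred syndrome, in which deafness goes with an enlarged vestibular aqueduct. In the inner ear and kidney, Foxi1 is known as a regulator of such genes, and pendrin in the cochlea is known from the outer sulcus, the spindle cells and the spiral prominence.

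The samples came from male C57BL/6 mice aged 6 weeks, and the labels name no treatment, transgene or other allele. Cochlear tissue holding the organ of Corti, the lateral wall and the spiral ganglion neurons was cut into apical, middle and basal turns. From each turn 4 samples were hybridized, 1 per array. Each value is the scaled fluorescence signal of a gene, that is, the mean over its probes on the log2 scale after every array was brought to the same 75th percentile. Levels of different genes or probes are not compared, since probes differ in brightness. Differences between turns were tested with limma over all 12 arrays, and a gene was called where the adjusted p of that comparison was under 0.05.

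On the 12 arrays 77.4% to 81.4% of spots passed as well above background, and their unscaled 75th percentiles lay between 534.6 and 722.1. The 4 arrays of a turn shared 1 slide, different from those of the other turns, so turn and slide cannot be told apart in any comparison below. The study used 4 mice for these samples, and the labels do not say which samples came from the same mouse. The main fit therefore treats the arrays as unpaired, and p-values measure the spread between these samples. Markers of the dissected tissue were detected, with all 4 markers of spiral ligament fibrocytes, all 5 of strial marginal cells and all 5 of hair cells well above background throughout at least 1 turn. The 5 hair cell markers were lower in the base than in the apex and all 4 neuron markers were too. In such bulk samples fewer cells of a type and less RNA per cell cannot be told apart.

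Leaving Atp6v1g3 out, 2 of 8 members were higher in the base than in the apex (Atp6v1g1 and Atp6v0a4) and 1 was lower (Atp6v1b2). Over all genes, 21.6% were called higher and 17.6% lower in that comparison. In the base against the middle turn, Atp6v1g1 was called higher and Atp6v1b1 and Atp6v1b2 lower, against 9.21% and 11.7% of all genes. In the middle turn against the apex, 2 of these 8 were called higher (Atp6v1g1 and Atp6v1b1) and 0 lower, against 7.59% and 4.42% of all genes. A separate rule asked for an adjusted F test under 0.05 and a 2-fold difference, in place of the adjusted p of the comparison. It passed 0 of 8 for the base against the apex, where 4.39% of all genes passed. It passed 0 of 8 (2.66%) for the base against the middle turn. For the middle turn against the apex it passed 0 of 8 (0.436%).

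**Figure D1:**
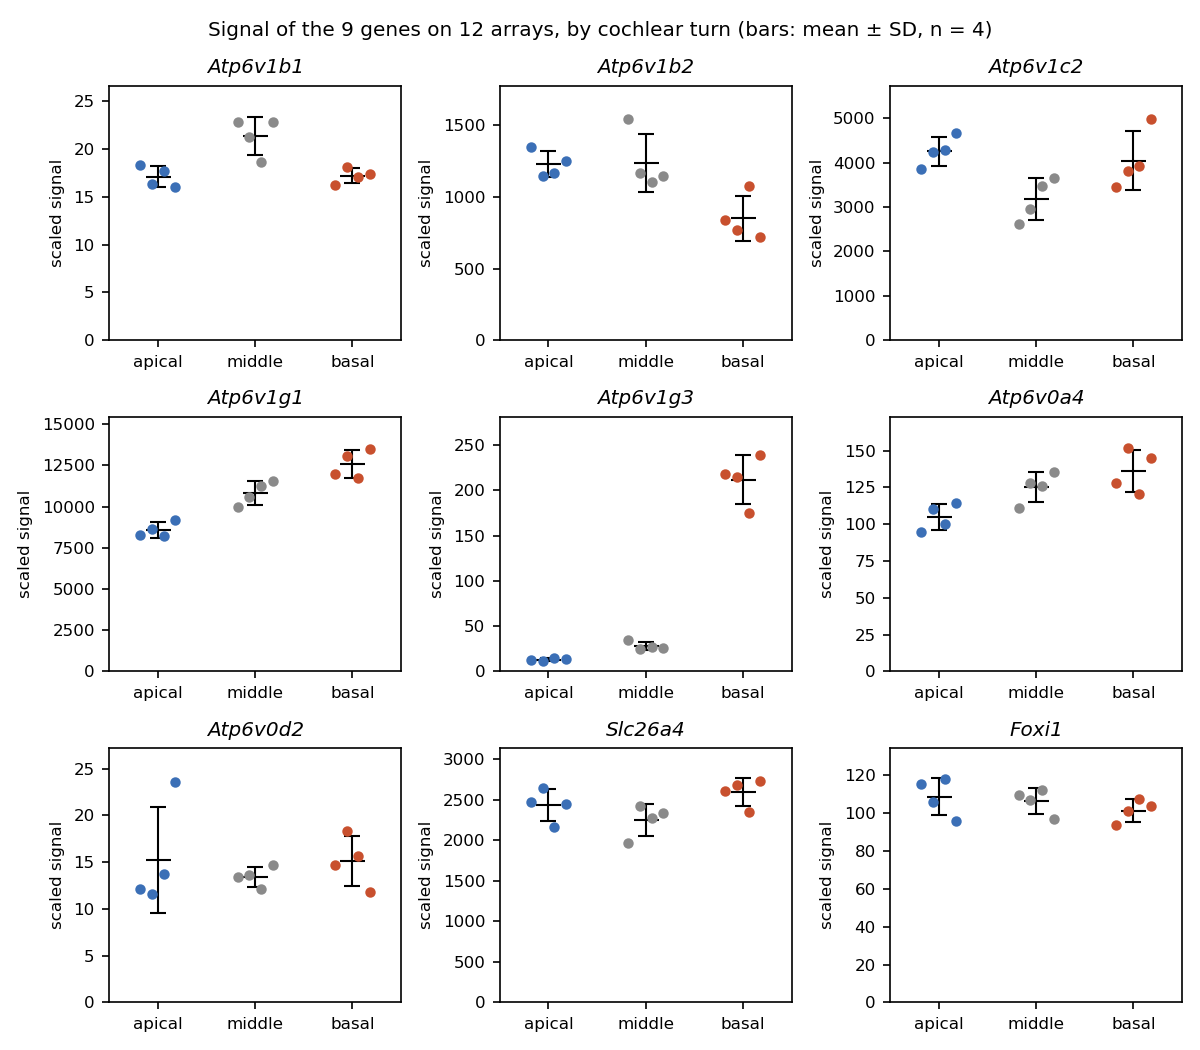
Scaled signal (linear axis from 0, arbitrary fluorescence units) of each of the 9 genes on the 12 arrays, by turn; points are arrays, and bars are the mean ± SD of 4 arrays. Atp6v1g3 stood at 175.3 or more on every basal array and at 34.6 or less on every other array, and the remaining panels span much smaller ratios.

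Among the V1 subunits, G is a stalk subunit with a ubiquitous isoform, G1, a neuronal isoform, G2, and G3, known from the kidney. The gene for G3, Atp6v1g3, was measured by 3 probes on chromosome 1. Its 2 upstream probes showed the largest differences between turns and are printed in full (mm9, plus strand, 5′ to 3′, at chr1:140170365-140170424 and chr1:140180284-140180343). No probe of another gene on the array matched them over 40 bases or more.
Atp6v1g3 probe 1: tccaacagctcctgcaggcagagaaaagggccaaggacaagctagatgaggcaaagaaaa
Atp6v1g3 probe 2: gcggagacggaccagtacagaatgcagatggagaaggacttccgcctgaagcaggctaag

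Over its 3 probes Atp6v1g3 had a signal of 12.4, 11.7, 14.7 and 13.2 on the apical arrays, 34.6, 25.0, 26.5 and 25.9 on the middle arrays and 218.7, 214.4, 175.3 and 239.7 on the basal arrays. The arrays of the apex were lowest and those of the base highest, with no overlap between any 2 turns. Turn means were 12.99 ± 1.30 (SD, n = 4) for the apical, 28.03 ± 4.45 for the middle and 212 ± 26.8 for the basal arrays. On the log2 scale the base lay 4.02 above the apex and 2.92 above the middle turn, differences that chose the gene and are not tested. The middle turn lay 1.10 above the apex, and in neither of these turns did any of the 3 probes pass as well above background throughout its arrays. With a normexp background correction the 3 differences were 1.93, 1.61 and 0.31.

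Part of this gene's signal was below background, so its size is a bound for some probes. Probe 1 was not well above background on any of the 4 apical or 4 middle arrays and was so on all 4 basal arrays. Its basal mean was at least 9.59-fold higher than in the apex (35.3-fold as measured) and at least 7.86-fold higher than in the middle turn. For these bounds, a dim array counts at no less than its lowest signal well above background. Probe 2 was not well above background on any apical array and was so on 3 of 4 middle arrays, and its base was at least 22-fold above the apex. The third probe, nearest the 3′ end at chr1:140185743-140185802, was at least 2.15-fold higher in the base than in the apex (2.29-fold as measured) and was well above background on 2 of 4 apical arrays.

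**Figure D2:**
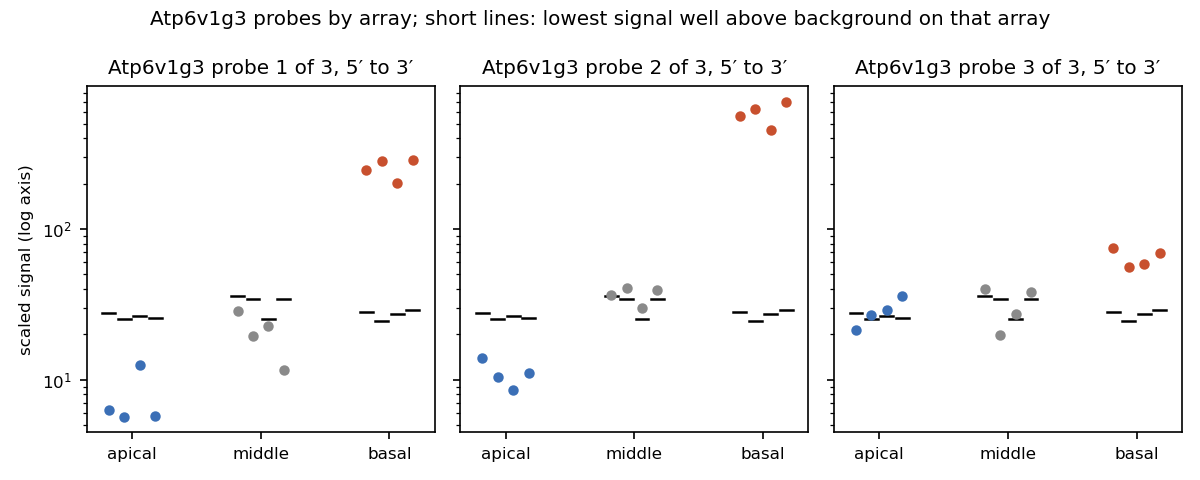
Scaled signal (log axis, arbitrary fluorescence units) of the 3 Atp6v1g3 probes on each array, in order from 5′ to 3′; short lines mark the lowest signal well above background on that array. Probes 1 and 2 stand above these lines on all 4 basal arrays and below them on all 4 apical arrays, and the third probe shows the smallest difference.

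The ubiquitous isoform G1 moved the same way by a smaller ratio. Atp6v1g1 signal was 8259.6, 8653, 8201 and 9212 on the apical arrays, 9982, 10557, 11239 and 11563 on the middle arrays and 11963, 13084, 11741 and 13515 on the basal arrays. The 3 turns did not overlap. The base exceeded the apex by 0.55 (SE 0.07, adjusted p = 0.00011 by limma, 1.46-fold), and all 6 probes were called higher, with differences between 0.51 and 0.60. At the probe level 16.4% of all probes were called higher in the base. The middle turn exceeded the apex by 0.34 (adjusted p = 0.012). The base exceeded the middle turn by 0.21 (adjusted p = 0.044), a call that was lost when any one of 8 arrays was left out, with adjusted p up to 0.12.

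Both B isoforms belong to the ATP-splitting head of V1, B1 being known from acid-secreting cells and B2 from nearly all cells, neurons included. B2 was clearly detected and was lower in the base. Atp6v1b2 signal was 1344, 1141, 1168 and 1251.5 on the apical arrays, 1539, 1163, 1106 and 1142 on the middle arrays and 835.1, 771.4, 1076 and 722.8 on the basal arrays. Every basal array lay below every apical and every middle array, and the basal array of sample 3 stood closest to the other turns.

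The base was lower than the apex by a log2 difference of -0.54 (SE 0.13, adjusted p = 0.0078 by limma) and lower than the middle turn by -0.54 (adjusted p = 0.016). The middle turn and the apex differed by 0.0028 with a 95% interval from -0.29 to 0.30. All 13 Atp6v1b2 probes were called lower in the base in both comparisons, where 18% and 7.76% of all probes were. With scaling to the spike-in probes, which moved the median of all genes to 0.52 in the base against the apex, the difference was -0.05 (adjusted p = 0.72) and the call was lost. Taken against the median of all genes, the difference was -0.58 under both scalings. Each scaling multiplies an array by 1 factor, so this value could not differ between them and is no further support.

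B1 was dim. Of the 13 Atp6v1b1 probes, 2 were well above background on all 12 arrays and 6 on none. The gene signal, 15.96 to 18.3 on the apical arrays, 18.6 to 22.8 on the middle arrays and 16.2 to 18.1 on the basal arrays, was therefore mostly set near background. Every middle array lay above every other one. The middle turn exceeded the apex by 0.32 (adjusted p = 0.02 by limma) and the base lay below the middle turn by -0.31 (adjusted p = 0.014), while base and apex differed by 0.01 (95% interval -0.15 to 0.18). With only probes well above background, the middle turn and the apex differed by 0.06 (adjusted p = 0.53) and the base was lower than the apex by -0.22 (adjusted p = 0.0073). That setting kept 3 probes, which differed by 0.37, -0.66 and -0.35 between base and apex. The 2 lower ones were 90.9% and 83.9% identical to Atp6v1b2 probes over 55 and 56 bases. The call of the middle turn against the apex was also lost without the apical array of sample 2 or the middle array of sample 4 (adjusted p = 0.066 and 0.062). The call of the base against the middle turn was lost with quantile normalization (-0.12, adjusted p = 0.24), with a normexp background correction (-0.12, adjusted p = 0.27), with the median of the probes (-0.54, adjusted p = 0.13) and with scaling to the spike-in probes (-0.038, adjusted p = 0.74).

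The brightest Atp6v1b1 probe is nearly a copy of a stretch of Atp6v1b2. It had a mean signal of 620.5 on apical, 636.7 on middle and 398.7 on basal arrays, and 11 of the other 12 probes of the gene were not well above background on all 12 arrays. The probe differed by -0.66 between base and apex (adjusted p = 0.0074 by limma) and by -0.69 between base and middle turn (adjusted p = 0.016), the direction seen for the 13 probes of Atp6v1b2. It is 90.9% identical over 55 bases to an Atp6v1b2 probe, with 5 mismatches. The pair is printed to show this, with the mismatched bases in capitals (mm9, plus strand, Atp6v1b1 at chr6:83706241-83706300 and Atp6v1b2 at chr8:71627599-71627658).
Atp6v1b1 probe: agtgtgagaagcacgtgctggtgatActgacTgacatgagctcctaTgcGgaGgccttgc
Atp6v1b2 probe: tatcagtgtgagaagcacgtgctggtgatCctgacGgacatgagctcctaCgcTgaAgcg

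Whether Atp6v1b2 transcripts bound to the Atp6v1b1 probe was not tested. The other Atp6v1b1 probe bright on every array moved the opposite way, with means of 45.84, 48.57 and 59.16 in apex, middle turn and base. Its base exceeded its apex by 0.37 (adjusted p = 0.028 by limma).

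The C subunit joins V1 to V0, and its isoform C2 is known from kidney and lung. Atp6v1c2 signal was 3852, 4248, 4273 and 4654 on the apical arrays, 2623, 2958, 3484 and 3662 on the middle arrays and 3448, 3808.5, 3915 and 4990.2 on the basal arrays. The middle turn was low: all 4 of its arrays lay below all 4 apical arrays. Neither comparison passed the threshold, with -0.43 for the middle turn against the apex (adjusted p = 0.052 by limma) and 0.34 for the base against the middle turn (adjusted p = 0.081). The first of these passed with quantile normalization (-0.53, adjusted p = 0.019) and with a normexp background correction (-0.43, adjusted p = 0.038). All 13 probes were lower in the middle turn than in the apex and all 13 higher in the base than in the middle turn. Base and apex differed by -0.09 (95% interval -0.37 to 0.20).

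Of the V0 subunits, a4 is the isoform of the proton-carrying part that acid-secreting kidney cells use. Atp6v0a4 signal was 94.9, 110.1, 100.3 and 114.5 on the apical arrays, 111.0, 128.2, 125.9 and 135.5 on the middle arrays and 128.1, 151.5, 120.5 and 145.0 on the basal arrays. All basal arrays lay above all apical arrays, and the middle turn overlapped both. The base exceeded the apex by 0.37 (SE 0.09, adjusted p = 0.0075 by limma, 1.30-fold). All 20 probes were higher in the base and 8 were called, where 16.4% of all probes were called higher. With the median of the probes in place of their mean the difference was 0.30 and no longer passed (adjusted p = 0.089).

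The d2 isoform of the V0 part is known from osteoclasts and kidney. Atp6v0d2 signal was 11.6 to 23.6 on the apical arrays, 12.1 to 14.7 on the middle arrays and 11.8 to 18.3 on the basal arrays, and only 2 of its 8 probes were well above background on all 12 arrays. No comparison passed, and the interval of the base against the apex ran from -0.42 to 0.49. Single arrays set the extremes. The value of 23.6 came from the apical array of sample 4, where the summed signal of 6 bone genes was 5091 against 1178 to 1760 on the other apical arrays and that of 11 osteoclast genes was 2277 against 1509 to 1677. The part of bone tissue in this value was not tested. One probe of the gene read 340.5 on the basal array of sample 2 and between 6.2 and 9.2 on the other 11 arrays.

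All genes of the pump other than Atp6v1g3 formed a list of 24 V1, V0 and accessory genes, the 6 members above included. In the base against the apex 16 were called higher, 3 lower and 5 not called, where 21.6% of all genes were called higher and 17.6% lower. The median log2 difference was 0.29 against 0.04 over all genes. The largest rise was that of Atp6v0e, a small subunit of the membrane part, at 0.83 (adjusted p = 3e-05 by limma), from 7534 ± 573 in the apex to 13400 ± 1030 in the base. Among the isoforms of the a subunit, Atp6v0a2 rose by 0.51 and Tcirg1, which encodes the a3 isoform of lysosomes and osteoclasts, by 0.49.

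The ring and rotor genes Atp6v0b, Atp6v0c and Atp6v0d1 rose by 0.48, 0.39 and 0.31. Among V1 genes Atp6v1d rose by 0.40, Atp6v1c1 by 0.37, Atp6v1f by 0.32, Atp6v1e1 by 0.26, Atp6v1a, the catalytic subunit, by 0.20 and Atp6v1h by 0.15. The accessory proteins Atp6ap1 and Atp6ap2 rose by 0.37 and 0.20. Not called were Atp6v1b1, Atp6v1c2, Atp6v0d2, Atp6v0e2 (0.11) and Atp6v1e2 (-0.10), the last being the isoform known from testis. With quantile normalization 10 were called higher and 3 lower, and with scaling to the spike-in probes 20 higher and 1 lower, where the median of all genes had itself moved to 0.52. The excess over all genes shrank with quantile normalization, where the median of the pump genes was 0.14 against 0.08 over all genes.

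Of the macrophage markers, 6 of 7 were called higher in the base than in the apex, where 21.6% of all genes were. Their summed signal was 2141 to 2715 in the apex and 3024 to 3836 in the base. Of 11 osteoclast genes 3 were called higher (Clcn7, Ostm1 and Tm7sf4) and 8 were not, Acp5, Ctsk and Calcr among them. Sums of the 11 were 1509 to 2277 in the apex and 1873 to 2110 in the base. Tm7sf4 was not well above background on all arrays of any turn. All 4 spiral ligament fibrocyte genes, all 5 of strial intermediate cells and 4 of 5 of strial marginal cells were called higher as well. In the middle turn against the apex 0 macrophage and 0 osteoclast genes were called, where 7.59% of all genes were called higher. There 4 strial marginal, 3 strial intermediate and 2 fibrocyte genes were called higher. The part of these cell types in the pump values was not tested.

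In the middle turn against the apex 11 of the 24 genes were called higher and 0 lower, against 7.59% and 4.42% of all genes, with a median of 0.23 against 0.07 over all genes. This count rested on single arrays. It was 3 without the apical array of sample 2 and 3 without the middle array of sample 4, and between 6 and 7 without the apical array of sample 1 or 3 or the middle array of sample 2. In the base against the middle turn 3 were called higher (Atp6v0e by 0.49, Atp6v0a2 by 0.25 and Atp6v1g1) and 4 lower (Atp6v1b1, Atp6v1b2, Atp6v1g2 and Atp6v0a1), against 9.21% and 11.7% of all genes. There 4 in all were called without the middle array of sample 1 and 4 without the basal array of sample 2.

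**Figure D3:**
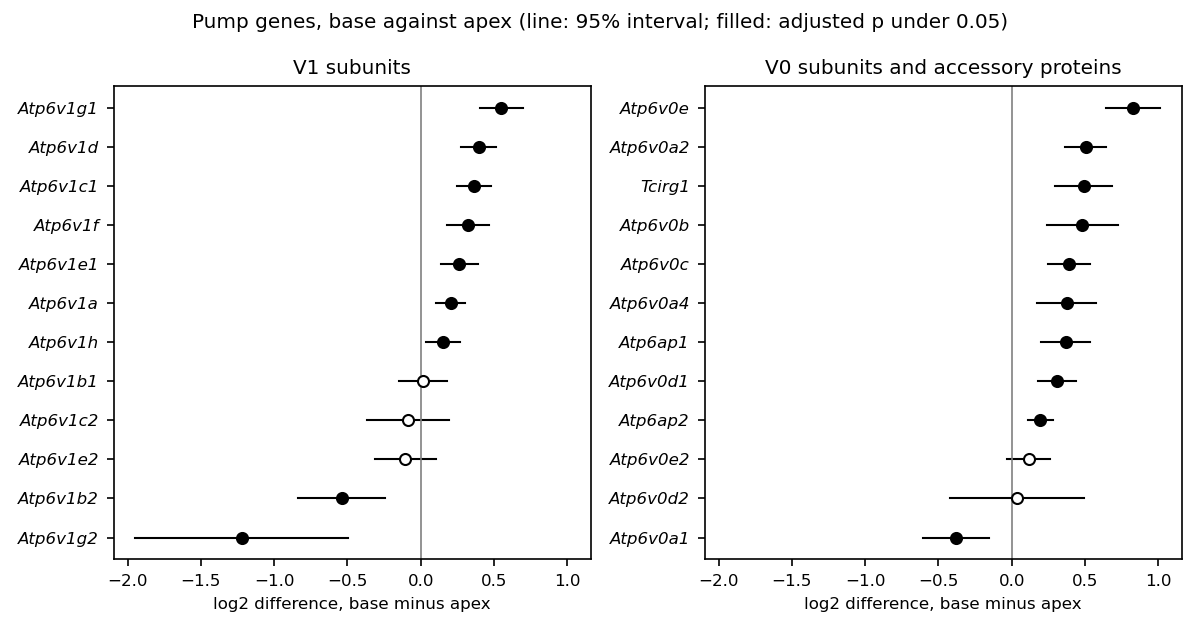
Log2 difference of the base minus the apex for 12 V1 genes and 12 V0 and accessory genes (Atp6v1g3 left out), with the 95% interval from limma; filled points passed an adjusted p under 0.05. Points right of 0 are higher in the base: 16 filled points lie on that side, and 3 (Atp6v1g2, Atp6v1b2 and Atp6v0a1) lie on the left.

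The 3 pump genes that were lower in the base were Atp6v1b2, Atp6v1g2, the neuronal isoform of G, and Atp6v0a1, the a isoform known from synaptic vesicles. Atp6v1g2 signal was 824.9, 688.1, 859.6 and 769.1 on the apical arrays and 330.3, 200.1, 726.5 and 263.7 on the basal arrays, a difference of -1.22 (SE 0.33, adjusted p = 0.012 by limma). The basal array of sample 3 alone lay within the apical range. Atp6v0a1 differed by -0.38 (adjusted p = 0.012).

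These genes followed markers of spiral ganglion neurons from array to array. All 4 neuron markers (Nefl, Nefm, Tubb3 and Snap25) were called lower in the base than in the apex, where 17.6% of all genes were. They differed by between -2.00 and -1.31. Their summed signal was 21480 to 28050 on the apical arrays, 19470 to 34850 on the middle arrays and 3950 to 17830 on the basal arrays, the basal maximum being sample 3 and the middle maximum sample 1. Within turns, the deviations of a gene from its turn mean followed those of the neuron marker mean over the 12 arrays with Pearson r = 0.85 for Atp6v1b2, 0.99 for Atp6v1g2 and 0.93 for Atp6v0a1. For Atp6v1b1, Atp6v1g1 and Slc26a4 it was -0.01, -0.67 and -0.72. The points share their slide within a turn, and the array's own scaling enters both axes. All 4 Schwann cell markers were called lower in the base as well, against the apex (17.6% of all genes) and the middle turn (11.7%). Their summed signal was 12150 to 13730 on the apical arrays, 13030 to 15640 on the middle arrays and 6060 to 11710 on the basal arrays, with the same 2 arrays at the basal and middle maximum. The part of neuron and Schwann cell content in the differences of these genes was not tested.

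**Figure D4:**
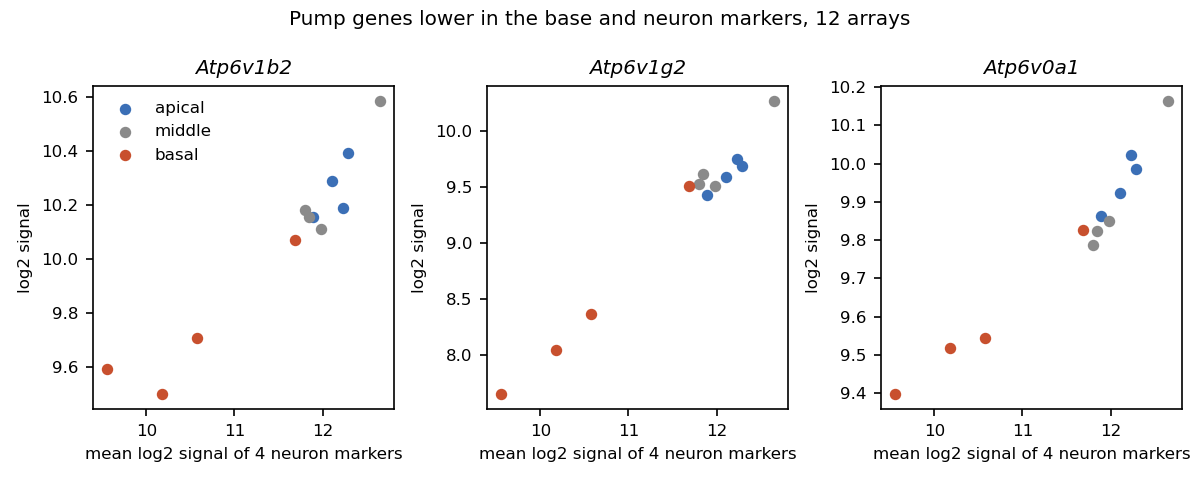
Log2 signal of Atp6v1b2, Atp6v1g2 and Atp6v0a1 (vertical axes) against the mean log2 signal of 4 neuron markers (horizontal axes) on the 12 arrays, coloured by turn. The basal array of sample 3, at 11.69 on the horizontal axis, stands apart from the other 3 basal arrays (9.55 to 10.58), and the middle array of sample 1 is highest in each panel.

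Pendrin exchanges chloride, bicarbonate and iodide across the apical membrane of epithelial cells. As a gene, Slc26a4 did not differ between turns beyond the threshold. Its signal was 2476, 2641, 2168 and 2445 on the apical arrays, 1969, 2428, 2279 and 2340.4 on the middle arrays and 2605, 2680.5, 2351 and 2737 on the basal arrays. The turns overlapped throughout. The base differed from the apex by 0.09 (95% interval -0.09 to 0.27, adjusted p = 0.43 by limma), the base from the middle turn by 0.20 (adjusted p = 0.1) and the middle turn from the apex by -0.11 (adjusted p = 0.38). The sign of the base against the apex turned with quantile normalization (-0.033), and scaling to the spike-in probes, which put the median of all genes at 0.52, gave 0.58 (adjusted p = 0.00061).

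The gene mean covers probes that moved in opposite directions. Slc26a4 had 19 probes on the minus strand of chromosome 12, each well above background on all 12 arrays. In the middle turn against the apex the 9 probes nearest the 5′ end were all called lower, by between -0.77 and -0.42, where 3.04% of all probes were called lower. The 10 probes nearest the 3′ end were all higher, by between 0.21 and 0.39, and 1 of them was called, where 2.86% of all probes were called higher. The change of sign fell between neighbouring probes at chr12:32224083-32224142 (probe 9) and chr12:32220701-32220760 (probe 10), with no probe between them. These are printed as the boundary of the pattern (mm9, minus strand, 5′ to 3′).
Slc26a4 probe 9: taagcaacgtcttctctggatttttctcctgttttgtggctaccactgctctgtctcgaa
Slc26a4 probe 10: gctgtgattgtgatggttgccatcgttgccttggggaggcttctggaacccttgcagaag

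Probe 9 was at 986.9 for the apical, 660.8 for the middle and 882.4 for the basal turn, and probe 10 at 3814, 4404 and 4734. In the base against the apex the first 9 probes ran from -0.38 to -0.02. Of these, 2 were called lower, where 18% of all probes were. The last 10 ran from 0.27 to 0.46, and 9 of them were called higher, where 16.4% of all probes were. In the base against the middle turn the first 9 ran from 0.26 to 0.42, 6 of them called higher, where 6.02% of all probes were, and the last 10 from 0.04 to 0.13 with 0 called. From high to low, the turns thus came in the order apex, base, middle for the upstream probes and base, middle, apex for the downstream probes.

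Averaged over each block and back on the linear scale, the 9 upstream probes gave 860.3, 948.2, 775.2 and 812.1 on the apical arrays, 523.9, 622.1, 578.5 and 608.7 on the middle arrays and 778.8, 745.2, 662.9 and 791.1 on the basal arrays. The 10 downstream probes gave 6410.2, 6638, 5472 and 6592 on the apical arrays, 6482, 8268, 7827 and 7865 on the middle arrays and 7722, 8483, 7344 and 8366 on the basal arrays. The upstream block of every middle array lay below that of every other array. Within an array, the log2 difference of the downstream minus the upstream block was 2.89 ± 0.10 (SD, n = 4) for apical, 3.70 ± 0.06 for middle and 3.42 ± 0.09 for basal arrays. Its ranges, 2.81 to 3.02, 3.63 to 3.76 and 3.31 to 3.51, did not overlap, and since the blocks were drawn after the values were seen, no test is given.

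The same split was made for every gene with at least 10 probes well above background on all 12 arrays and on one strand, by dividing its probes evenly into upstream and downstream ones. Over these 4458 genes the difference shifted by a median of 0.08 between the apex and the middle turn and by 0.13 between the apex and the base, towards the 3′ end. For Slc26a4 the shifts were 0.82 and 0.54. A shift of 0.82 or more from apex to middle was found in 2 of the 4458 genes, Slc26a4 included, which is 0.0449%, and one of 0.54 or more from apex to base in 29 genes (0.651%). For Slc26a4 the even division fell at the boundary already seen, while the other genes were cut at their midpoint whatever their pattern. These shares are therefore a description and no test. In the middle turn the arrays lay above those of the apex without overlap for 22.4% of the genes. In the base they lay above those of the apex without overlap for 39.9%. With the median of the probes in place of the mean, which for 19 probes is the value of a single downstream probe, Slc26a4 was called higher in the base than in the apex at 0.39 (adjusted p = 0.0077 by limma).

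**Figure D5:**
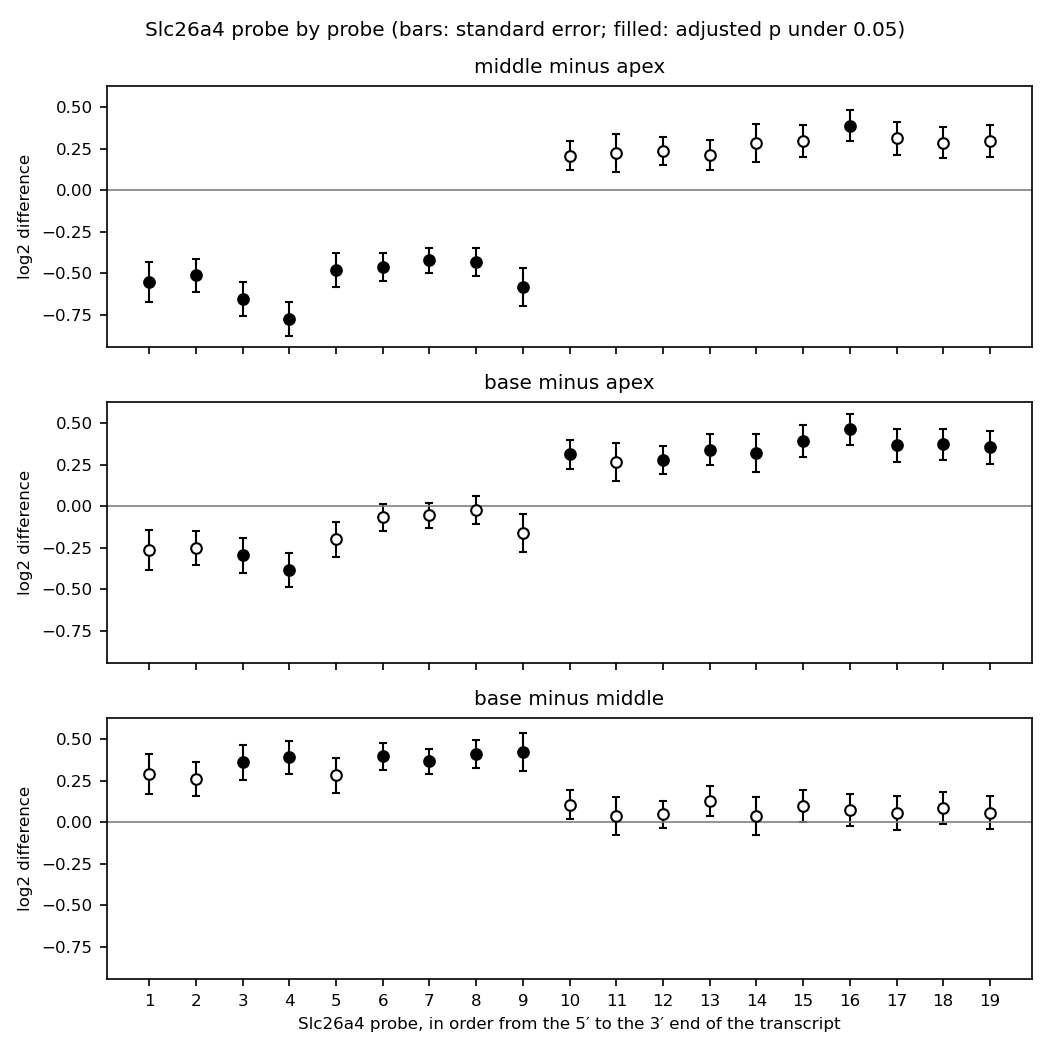
Log2 difference between turns (vertical axes) of the 19 Slc26a4 probes in order from 5′ to 3′ (horizontal axis), with the standard error from limma; filled points passed an adjusted p under 0.05 over all probes. In the middle turn against the apex, probes 1 to 9 lie between -0.77 and -0.42 and probes 10 to 19 between 0.21 and 0.39.

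Of the SLC26 family, a list of 11 with 9 on the array, Slc26a4 included, 1 was called higher and 1 lower in the base than in the apex, where 21.6% and 17.6% of all genes were. Slc26a2, a sulfate transporter, was higher by 0.30 (adjusted p = 0.048 by limma). Slc26a5 encodes prestin, the motor protein of outer hair cells, and was lower by -2.94 (adjusted p = 1.8e-06), as all 5 hair cell markers were. Slc26a7, an anion exchanger that kidney intercalated cells share with Reissner's membrane, was low in the middle turn, by -0.45 against the apex (adjusted p = 0.016), and the base exceeded the middle turn by 0.44 (adjusted p = 0.01). The median of the 9 genes was 0.02 in the base against the apex, against 0.04 over all genes.

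Foxi1, the transcription factor, showed no difference that passed the threshold. Its signal was 115.3, 105.8, 118.0 and 96.0 on the apical arrays, 109.7, 107.2, 112.0 and 96.8 on the middle arrays and 93.6, 100.9, 107.4 and 103.7 on the basal arrays. The turns overlapped, and the base differed from the apex by -0.10 (95% interval -0.27 to 0.07, adjusted p = 0.36 by limma), a sign that turned with quantile normalization (0.086) and with scaling to the median (0.018) or the spike-in probes (0.39).

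The 2 Foxi1 probes disagreed. The upstream one, at chr11:34107478-34107537, had means of 146.1, 135.0 and 104.6 in apex, middle turn and base, a difference of -0.49 between base and apex (adjusted p = 0.02 by limma). The downstream one, at chr11:34104352-34104411, had 81.04, 85.05 and 98.73, a difference of 0.29 (adjusted p = 0.027). The 2 probes of Foxi1 thus give no common direction.

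Genes known from kidney intercalated cells, where Foxi1, pendrin, B1, a4 and G3 occur together, were taken as a further list of 15, of which 14 were on the array. In the base against the apex 3 were called higher and 0 lower, where 21.6% and 17.6% of all genes were, with a median of 0.07 against 0.04 over all genes. Car2, a carbonic anhydrase, also common in fibrocytes of the spiral ligament, rose from 6748 ± 668 (apex) through 12970 ± 1050 (middle turn) to 29510 ± 3570 (base), a difference of 2.13 between base and apex (adjusted p = 2e-07 by limma) with no overlap between turns. The other 2 were Car12, a membrane-bound carbonic anhydrase (0.27), and Hmx2, a homeobox factor of the inner ear (0.70). Not called were the chloride-bicarbonate exchangers Slc4a1 (-0.39) and Slc4a9 (0.04), the ammonia channels Rhbg (0.18) and Rhcg (0.03), the water channel Aqp6 (-0.0021) and 6 more. In the base against the middle turn 2 were called higher (9.21% of all genes) and 1 lower (11.7%). The lower one was Insrr (-0.14, adjusted p = 0.031 by limma), with 6 of 20 probes well above background on all basal arrays. In the middle turn against the apex 2 were called higher (7.59%) and 1 lower (4.42%).

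The genes whose levels followed a member most closely over the 12 arrays were taken by Pearson r among 16502 detected genes. For Atp6v1g3 these were Fxyd6, a regulator of the sodium pump (r = 0.99), Pcolce2, an enhancer of collagen processing (0.99), Nell2 (0.99), Slc22a2, an organic cation transporter (0.99), and Degs2 (0.99). Each rose from apex to middle to base, Slc22a2 from 35.96 to 55.32 and 181.8 and Fxyd6 from 4597 to 5746 and 10010. Within turns the r of these 5 genes was between 0.33 and 0.66, so most of the likeness lay between the turns. For Slc26a4 the 5 were Smo, the hedgehog signal transducer (0.94), Cul4a (0.93), Rell1 (0.92), Pdia4 (0.92) and Ipo8 (0.92), with r between 0.86 and 0.93 within turns. For Foxi1 they were Tia1 (0.90), Atxn2 (0.87), Pcdha6 (0.83), Ppp1r16b (0.80) and Kcnip3 (0.80). The arrays of a turn share a slide, and these values are a description of likeness over arrays.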

How the data were processed

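RNA from 4 samples of each cochlear turn was labelled with Cy3 from 25 ng of total RNA and hybridized to 1-colour exon arrays with 60-base probes. The deposited values are fluorescence intensity per spot, which the authors made from the scanned images with Agilent Feature Extraction 10.7.3.1, with background subtracted and no normalization between arrays. The deposited files also hold other columns, quality flags that mark uneven, saturated and well-above-background spots, and probe positions on mm9. The series value table deposited by the authors held the same processed intensity.

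Of 180880 spots per array, 7914 controls and 622 further spots were dropped, the latter for a mark as uneven, deviating or manually excluded on at least 1 array, which left 165865 probes of 19505 gene names. Each array was scaled to a 75th percentile of 641.3, signals were log2 transformed, and probes were averaged per gene name. Turns were compared with limma 3.58.1 (lmFit, eBayes; R 4.3.3, with version 1.17.8 of data.table) over 12 arrays, with Benjamini-Hochberg adjustment over all genes, or over all probes for probe values. Near-identical probes were sought with blastn 2.17.0, and the matches of the Foxi1 probes are not reported here. Intervals are 95%. The fit was checked on simulated data. The members and gene lists were chosen with earlier results of these data known. The genes named beyond the members are those of the pump, SLC26 and intercalated cell lists that were called, and the 5 most alike in level to Atp6v1g3, Slc26a4 and Foxi1. The genes not called that are named, the 4 neuron markers, Clcn7, Ostm1 and Tm7sf4 were added after their values were seen.

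Alternatives were quantile normalization, scaling to the median or to spike-in probes, normexp background correction (offset 50), the median of probes, only probes well above background, all spots kept, 16 added to each signal, other fits of the same model, the sample number as a block, and each array left out in turn. Precision is limited by 4 arrays per turn, with a median SD of a gene of 0.11 to 0.13 log2 units within a turn.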

Additional observations from a re-analysis of the deposited data

Results flagged for a closer look

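Of 81 groups of 4 arrays examined for 1 array apart from the others, 4 held one, and chance gives about 1 in 20. Atp6v1b2 was at 1539 on the middle array of sample 1 against 1163 on the next (gap over range 0.847). On the same array Atp6v1g2 was at 1235 against 782.1 (0.862) and Atp6v0a1 at 1148 against 922.3 (0.839), and this array also had the highest summed signal of the 4 neuron markers. Tcirg1 was at 542.5 on the middle array of sample 4 against 480.3 on the next (0.907). The causes were not tested.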

How the results depend on the processing

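No member that was called in the main analysis reversed under any alternative, and the reversals below are of differences that had not passed the threshold. With quantile normalization the base against the apex became -0.033 for Slc26a4 and 0.086 for Foxi1, Foxi1 became 0.038 for the base against the middle turn and 0.048 for the middle turn against the apex, and Atp6v1b2 became -0.034 for the middle turn against the apex. Pump genes called higher in the base than in the apex were 10, pump genes called in the middle turn against the apex 6, and members called in the base against the middle turn 1. With scaling to the median, Atp6v1c2 became 0.031 and Foxi1 0.018 for the base against the apex, Foxi1 became 0.024 for the middle turn against the apex, and 5 members were called in the base against the middle turn. Scaling to the median and to the spike-in probes moved the median of all genes in the base against the apex to 0.15 and 0.52. With the spike-in probes, Atp6v1c2 became 0.40 and Foxi1 0.39 for the base against the apex, Foxi1 0.20 for the base against the middle turn, and Atp6v0d2 0.094, Slc26a4 0.11 and Foxi1 0.19 for the middle turn against the apex. Then 6 members were called in the base against the apex, 1 pump gene was lower there, and 17 and 18 pump genes were called in the base against the middle turn and in the middle turn against the apex. Normexp gave 0.026 for Atp6v0d2 and 0.0040 for Foxi1 in the middle turn against the apex. The median of probes gave -0.038 for Atp6v0d2 in the base against the apex, -0.020 for Atp6v1b2 and 0.30 for Slc26a4 in the middle turn against the apex, and 1 member and 4 pump genes called in the base against the middle turn. With only probes well above background, Atp6v1b1 became -0.22 and Atp6v0d2 -0.19 for the base against the apex, and Atp6v0d2 became -0.20 for the base against the middle turn and 0.012 for the middle turn against the apex. Adding 16 to each signal gave -0.026 for Atp6v1b1 in the base against the apex. The unmoderated analysis of variance, which tests the 3 turns at once, passed 5 members in the middle turn against the apex. In each comparison of the middle turn it passed 20 pump genes. Counts of members for the middle turn against the apex take in Atp6v1g3, and a test of the 3 turns at once uses the base that picked it. Requiring the F test and 2-fold left 0 members and 1 pump gene (0 higher, 1 lower) in the base against the apex, 0 and 1 in the base against the middle turn, and 1 and 0 in the middle turn against the apex, the 1 being Atp6v1g3, whose F test takes in the base that picked it. Using only the arrays of the 2 turns left 3 pump genes in the base against the middle turn.

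The sample number as a replicate block raised the middle turn against the apex to 5 members and 17 pump genes, Atp6v1c2 (adjusted p = 0.0071 by limma) and Atp6v0a4 (adjusted p = 0.02) now among them, called Atp6v1c2 in the base against the middle turn (adjusted p = 0.0075), and moved no other count by over 1.5 times. Samples sharing a number correlated between -0.037 and 0.23, the best match was the own number in 15 of 24 cases, and pairing was not established. Leaving out 1 array in turn gave 3 to 13 pump genes called in the middle turn against the apex and 4 to 8 in the base against the middle turn. It moved the base against the apex from -0.016 to 0.048 for Atp6v1b1 and from -0.074 to 0.27 for Atp6v0d2, and the middle turn against the apex from -0.11 to 0.053 for Atp6v1b2, from -0.23 to 0.11 for Atp6v0d2 and from -0.088 to 0.015 for Foxi1. Leaving out the basal array of sample 3 and the middle array of sample 1 together, chosen after seeing the data, left 1 member called in the base against the middle turn, Atp6v1b2, and gave -0.11 for that gene in the middle turn against the apex. Where no cause is named, the cause was not tested. Atp6v1g3 in the apex and most probes of Atp6v1b1 and Atp6v0d2 lay near background, which limits their ratios.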
